A study of Mus musculus with 8 samples.

Results

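The 10 genes described here carry long-chain fatty acids into mitochondria or set the level of malonyl-CoA, which holds that transport back. They are Cpt1a, Cpt1b, Cpt1c, Cpt2, Slc25a20, Crat, Slc22a5, Mlycd, Acaca and Acacb. They were chosen by name from the pathway, with earlier results of these data known. Each was matched by Entrez identifier in a table of 27179 genes, where all 10 were found. RNA-seq was performed on neonatal cardiomyocytes (NCMs) of C57Bl/6 J mice, isolated on postnatal day 0, with each library made from 1 male heart. Dams breathed filtered air (FA, 4 libraries) or diesel exhaust (DE, 4 libraries) through most of gestation, starting when the vaginal plug was seen. The labels name no transgene or deletion in either group. NCMs were enriched by letting fibroblasts attach to a plate, so other cells can remain, and the litter of each pup is not given in the sources used here, so the p-values measure the spread between these hearts.

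Long-chain fatty acids reach the mitochondrial matrix as carnitine esters. Carnitine enters the cell through the transporter OCTN2 (Slc22a5), a CPT1 enzyme of the outer membrane (Cpt1a, the liver isoform, or Cpt1b, the muscle isoform) makes the acylcarnitine, the translocase of the inner membrane (Slc25a20) carries it in, and Cpt2 turns it back into acyl-CoA for β-oxidation. Crat moves short acyl groups, mainly acetyl, between CoA and carnitine. Malonyl-CoA inhibits CPT1. It is made by the acetyl-CoA carboxylases Acaca (ACC1, cytosolic, serving fatty acid synthesis) and Acacb (ACC2, at the outer mitochondrial membrane) and removed by malonyl-CoA decarboxylase (Mlycd). The heart is known to shift from glucose toward fatty acids as fuel after birth.

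Libraries held 17943024 to 39839737 counted fragments. The members took 0.127% to 0.129% of all counts in the FA libraries and 0.0705% to 0.0801% in the DE libraries. The sample names hold a further number, whose meaning is not stated. It is 12 for DE replicates 3 and 5 and 11 for the 6 other libraries. Libraries also differed in how level followed transcript length. For each doubling of length, log2 CPM (CPM being the count relative to library size, scaled by TMM factors) shifted by 0.14 and 0.13 in FA replicates 2 and 4, by -0.06 and -0.01 in FA replicates 3 and 6, by 0.04 and 0.03 in DE replicates 1 and 7 and by -0.12 and -0.15 in DE replicates 3 and 5, relative to the mean of the libraries. All 8 cardiomyocyte markers looked up were present, and their summed level was 55440 to 62300 CPM in FA and 43830 to 51930 CPM in DE, or 32330 to 38310 and 29100 to 36500 CPM without Myh6. The summed level of 8 fibroblast markers was 2008 to 3461 CPM in FA and 3655 to 6177 CPM in DE.

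Promoters are shown for 4 members that were lower in DE, to let their sequence be read beside the values. They had the largest differences among called members with a window at or near the start of the gene record, and Acacb, also lower, was left out because its window lies far inside its record. The 250 bases before the annotated start are from RefSeq on GRCm38.p6 (mm10), where 8 of the 10 members had an entry and Cpt1b and Crat had none. The start is that of the transcript in the RefSeq table, which lies inside the gene record for Cpt1a, Cpt1c, Slc22a5 and Mlycd and far inside it for Acaca and Acacb. The sequences run 5′ to 3′ on the gene's own strand. Capitals mark the letters AGGTCA (the binding hexamer of nuclear receptors such as the PPARs), CACGTG (an E-box), GGGCGG (a GC box) and CCAAT, each searched on both strands. The windows are Cpt1a (chr19:3323051-3323300, plus strand), Slc25a20 (chr9:108661886-108662135, plus strand), Cpt2 (chr4:107923590-107923839, minus strand) and Mlycd (chr8:119394644-119394893, plus strand).
Cpt1a: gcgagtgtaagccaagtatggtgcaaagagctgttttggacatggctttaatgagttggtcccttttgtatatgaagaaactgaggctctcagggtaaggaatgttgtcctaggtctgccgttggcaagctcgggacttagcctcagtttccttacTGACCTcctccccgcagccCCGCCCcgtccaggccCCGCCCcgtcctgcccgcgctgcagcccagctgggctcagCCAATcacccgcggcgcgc
Slc25a20: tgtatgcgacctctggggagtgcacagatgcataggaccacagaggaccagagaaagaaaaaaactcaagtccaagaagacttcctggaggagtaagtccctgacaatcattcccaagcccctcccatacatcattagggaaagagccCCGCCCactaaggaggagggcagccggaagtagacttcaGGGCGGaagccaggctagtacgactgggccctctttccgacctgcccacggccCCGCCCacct
Cpt2: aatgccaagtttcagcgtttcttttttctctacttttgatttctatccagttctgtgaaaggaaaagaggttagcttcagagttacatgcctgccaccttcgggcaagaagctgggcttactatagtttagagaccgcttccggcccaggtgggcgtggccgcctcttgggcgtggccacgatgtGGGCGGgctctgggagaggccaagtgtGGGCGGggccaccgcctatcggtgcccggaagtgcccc
Mlycd: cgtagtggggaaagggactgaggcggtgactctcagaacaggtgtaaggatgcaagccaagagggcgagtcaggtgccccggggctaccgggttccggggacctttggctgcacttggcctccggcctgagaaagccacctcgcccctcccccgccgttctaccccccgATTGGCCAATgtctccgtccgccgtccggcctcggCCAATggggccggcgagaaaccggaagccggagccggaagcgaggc
Cpt1a held the hexamer 94 bases before the start, on the reverse strand, with GC boxes at 75 and 59 bases and CCAAT at 19 bases. The only other member with the hexamer was Cpt1c, at 146 bases, and over all 32851 windows 14.0% held it. GC boxes were present in 5 of the 8 member windows and in 32.7% of all windows. Mlycd had no GC box by these letters but 3 CCAAT motifs, of which an adjoining inverted pair forms the palindrome at 81 and 76 bases. CCAAT was present in 4 of the 8 member windows and in 33.8% of all windows. The E-box was in 0 of the 8 and in 6.02% of all windows. The direct repeat of the hexamer with a 1-base spacer, the element of PPAR and RXR together, was in 0 of the 8 and in 0.0335% of all windows. These counts describe letters in a window and say nothing of binding, and elements farther away were not looked at.

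To ask whether exposure in utero went with a different level of the shuttle, DE was compared with FA over all 14966 genes that passed a filter on low counts, which included all 10 members. Genes are termed called where edgeR's quasi-likelihood test gave an adjusted p no greater than 0.05 (Benjamini-Hochberg over all tested genes) with at least a 25% difference. Of the 10 members, 8 were called, all of them lower in DE, and Acaca and Cpt1c were not called. Among all tested genes 5.80% were called, 2.22% lower and 3.58% higher. FA and DE values were fully apart for the 8 called members, against 14.7% of all tested genes whose groups did not overlap. The median log2 fold change was -0.93 over the members and 0.00 over all tested genes. The members were chosen with earlier results of these data known, so these shares are a description and not independent support. In RNA from a whole preparation, fewer cardiomyocytes and less RNA per cardiomyocyte cannot be told apart, and the part of the marker shifts given above in these results was not tested. On the log2 scale the summed cardiomyocyte markers moved by -0.35, or by -0.17 without Myh6, and the fibroblast markers by 0.73.

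**Figure D1:**
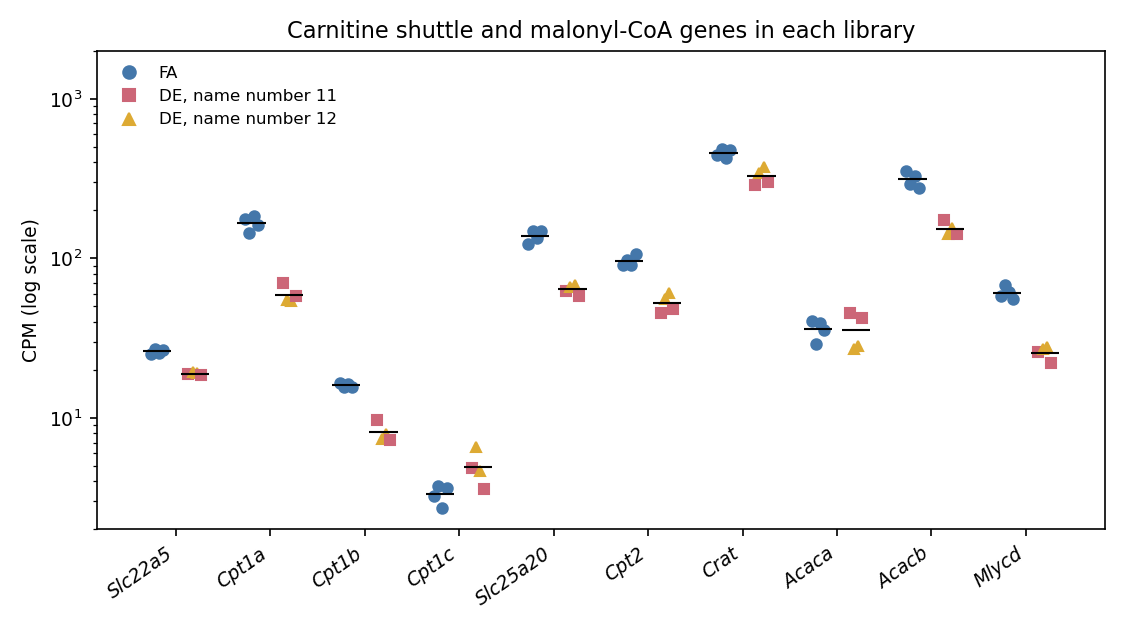
CPM on a log axis for each member in each library, with FA as circles, DE libraries numbered 11 as squares and DE libraries numbered 12 as triangles, and the group mean as a line. The groups are apart for 8 members, while Acaca (27.2 to 45.6 CPM in DE) and Cpt1c (3.57 to 6.54 CPM in DE) overlap with FA.

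Cpt1a, the first committed step of the shuttle, showed the largest fall of the members. It lies on chromosome 19 from 3322326 to 3385735. FA replicates 2, 3, 4 and 6 had 177, 144, 183 and 161 CPM, and DE replicates 1, 3, 5 and 7 had 69.8, 54.8, 54.0 and 58.5 CPM. The highest DE library reached less than the lowest FA library by more than the whole range of either group. The group means were 166.5 ± 17.6 and 59.2 ± 7.27 CPM (SD, n = 4 each). DE was at 0.356 of the FA level. The log2 fold change was -1.49 (SE, the standard error, 0.12, adjusted p = 8.52e-05). By p-value Cpt1a stood at rank 8 of the 14966 genes, and 0.187% of genes had a fold change as low or lower.

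Cpt1b, the isoform of muscle and adult heart, was also lower. It lies on chromosome 15 from 89416405 to 89425862. Its FA libraries had 16.5, 15.7, 16.3 and 15.6 CPM, a narrow band (coefficient of variation 2.86%), and the DE libraries had 9.74, 7.40, 7.96 and 7.30 CPM. The log2 fold change was -0.98 (SE 0.12, adjusted p = 0.00156). The groups were well separated, though the DE libraries were spread more widely (coefficient of variation 14%). The level of Cpt1b cannot be read from these counts. A read-through gene, Gm44502, spans Cpt1b from 89416405 to 89429927 on the same strand, shares 81.4% of the 3372 exon bases of Cpt1b in GENCODE M21, and had 1 count over all 8 libraries. In the 19-exon Cpt1b transcript of 2895 bases, 151 bases lie outside the read-through gene, 66 of them the whole first exon. If fragments on both genes were left uncounted, a setting the methods do not state, the Cpt1b counts come from unshared bases only. Over all its exon bases Cpt1b had 4.75 CPM per kilobase in FA, but over the 628 unshared bases alone it had 25.5 ± 0.729 (SD, n = 4). The matching DE levels were 2.40 and 12.9 ± 1.80 CPM per kilobase. Those 628 bases lie in all annotated exons of the gene, and the 151 bases of the 19-exon transcript are only a part of them. Over the 151 bases alone the level would be higher still. Cpt1a, with no shared bases, had 21.8 CPM per kilobase in FA and 7.75 in DE. Whether Cpt1a or Cpt1b was the more abundant transcript therefore depends on the length used.

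Cpt1c, an isoform known mainly from neurons and with little transferase activity, was the least abundant member. It lies on chromosome 7 from 44958483 to 44974880. The FA libraries had 3.24, 3.74, 2.71 and 3.64 CPM and the DE libraries 4.87, 6.54, 4.61 and 3.57 CPM, so that DE replicate 7 lay within the FA range and the other DE libraries above it. The log2 difference was 0.57 with a 95% interval from 0.14 to 0.99, and the adjusted p was 0.105. Its counts ran from 48 to 228 per library, the lowest of the members.

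**Figure D2:**
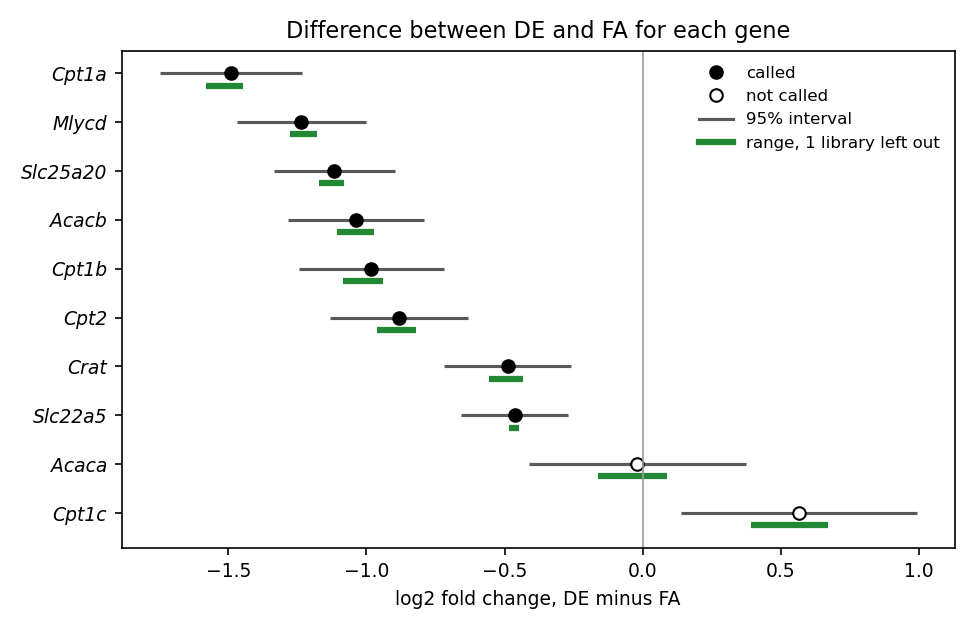
Log2 fold change of DE over FA for each member with its 95% interval (grey), and below it the range when each library in turn was left out (green). Filled points were called. The 8 called members run from -1.49 (Cpt1a) to -0.46 (Slc22a5), and the interval of Acaca, from -0.41 to 0.37, spans 0.

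The inner-membrane steps fell with Cpt1a. Slc25a20, the carnitine-acylcarnitine translocase, lies on chromosome 9 from 108662136 to 108684642. It had 123, 148, 134 and 149 CPM in FA replicates 2, 3, 4 and 6 and 62.8, 66.5, 67.6 and 58.5 CPM in DE replicates 1, 3, 5 and 7. The highest DE library was well below the lowest FA library, and the log2 fold change was -1.12 (SE 0.10, adjusted p = 0.000181). Cpt2, which reforms acyl-CoA in the matrix, lies on chromosome 4 from 107903982 to 107923589. It had 90.9, 97.9, 90.6 and 107 CPM in FA and 45.2, 55.4, 60.7 and 48.1 CPM in DE. The groups were again apart, with a log2 fold change of -0.88 (SE 0.11, adjusted p = 0.00237). In DE its higher values were those of replicates 3 and 5, numbered 12.

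The genes for carnitine uptake and acetylcarnitine exchange had the smallest differences of the called members, though Slc22a5 was not tested against another member. Crat, on chromosome 2 from 30400476 to 30416017, was the most abundant member. FA replicates 2, 3, 4 and 6 had 443, 482, 427 and 477 CPM, and DE replicates 1, 3, 5 and 7 had 288, 342, 372 and 302 CPM. The log2 fold change was -0.49 (SE 0.11, adjusted p = 0.0249), so that it fell by 28.7%. The groups did not overlap, but the call was lost when FA replicate 2, FA replicate 3, FA replicate 4, DE replicate 3 or DE replicate 7 was left out, with adjusted p-values of 0.0674, 0.0582, 0.0618, 0.0647 and 0.0503. Slc22a5, the carnitine transporter, lies on chromosome 11 from 53864542 to 53891796. It had 25.1, 27.2, 25.7 and 26.8 CPM in FA and 18.9, 19.4, 19.2 and 18.4 CPM in DE. Both groups were tight, with a coefficient of variation of 3.69% in FA and 2.15% in DE. The log2 fold change was -0.46 (SE 0.09, adjusted p = 0.0151), and the call was lost without FA replicate 4 (adjusted p = 0.0561).

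The enzymes that make and remove malonyl-CoA differed among themselves. Acacb, the carboxylase at the mitochondrial surface, lies on chromosome 5 from 114146321 to 114250761. It had 355, 294, 330 and 275 CPM in FA and 173, 142, 154 and 142 CPM in DE, with no overlap. The log2 fold change was -1.04 (SE 0.11, adjusted p = 0.000686). Mlycd, which removes malonyl-CoA, lies on chromosome 8 from 119394852 to 119421838. It fell as well, from 57.9, 67.7, 61.3 and 55.4 CPM in FA to 25.7, 26.9, 27.9 and 22.2 CPM in DE. Its log2 fold change of -1.24 (SE 0.11, adjusted p = 0.000175) was the lowest after that of Cpt1a. A gene for making malonyl-CoA at the mitochondrion and the gene for removing it were thus both lower in DE.
Acaca, the cytosolic carboxylase on chromosome 11 from 84129635 to 84401651, was not called. It had 40.4, 29.1, 39.3 and 35.7 CPM in FA and 45.6, 27.2, 28.1 and 42.0 CPM in DE. DE replicates 1 and 7 lay above every FA library and DE replicates 3 and 5 below every FA library. The log2 difference was -0.02 with a 95% interval from -0.41 to 0.37 (adjusted p = 0.960), so a change of up to that size in either direction was not excluded. Its sign turned positive under 9 of the 21 alternative settings, within each of which it was not called.

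Whether pairs of members changed to different extents was tested on the log2 ratio of their counts within each library, which does not depend on the scaling of libraries. The exact two-sided permutation test over 4 against 4 libraries cannot go below 0.0286, and 5 pairs were tested. An adjusted p of 0.0477 is that floor after adjustment. The pairs were chosen with earlier results of these data known, so the p-values describe the ratios and are not independent support. Acacb was called and Acaca was not in these same libraries, which made a shift of their ratio likely beforehand. The Acacb to Acaca count ratio fell from 8.70 in FA to 4.37 in DE, a log2 difference of -0.99 (exact p = 0.0286, adjusted p = 0.0477). All 4 DE libraries (1.75 to 2.45 on the log2 scale) lay below all 4 FA libraries (2.94 to 3.34). The Cpt1a to Cpt1b ratio fell by 0.50 (exact p = 0.0286, adjusted p = 0.0477), so that Cpt1a was reduced more than the counted part of Cpt1b. The Crat to Cpt2 ratio rose by 0.40 (exact p = 0.0286, adjusted p = 0.0477), the most even of the ratios in DE, with an SD of 0.03. In contrast, the Mlycd to Acacb ratio differed by -0.20 (exact p = 0.171, adjusted p = 0.171), and DE values from -2.75 to -2.40 overlapped with FA values from -2.62 to -2.12. The overlap was with the DE libraries numbered 12, while those numbered 11 (-2.75 and -2.67) lay below every FA library, and the difference was -0.34 with number 11 only and -0.06 with number 12 only. The Cpt1a to Cpt2 ratio differed by -0.60 (exact p = 0.0857, adjusted p = 0.107) with overlap, DE replicate 1 (0.63) lying above 2 of the FA libraries. Those numbered 12 (-0.02 and -0.17) lay below every FA library (0.56 or more), and the difference was -0.33 with number 11 only and -0.87 with number 12 only. The 2 numbers were also apart in DE for Acacb to Acaca (means 1.84 for number 11 and 2.42 for number 12) and for Crat to Cpt2 (2.66 and 2.62), with no test.

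**Figure D3:**
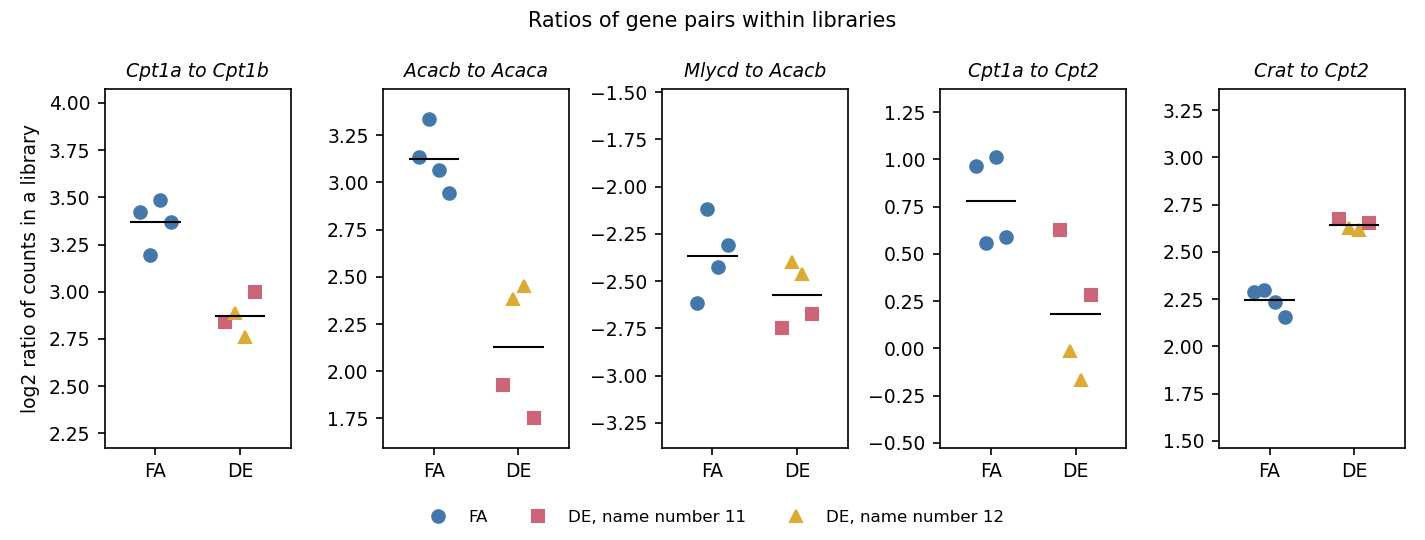
Log2 ratio of the counts of 2 members in each library, with group means as lines and the same span of 1.9 log2 units on every axis. FA and DE do not overlap for Cpt1a to Cpt1b, Acacb to Acaca and Crat to Cpt2, and the DE libraries numbered 11 and 12 lie apart in every pair but Cpt1a to Cpt1b.

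Levels were ordered per kilobase of exon. In FA the order was Crat (84.9 CPM per kilobase), Cpt2 (40.4), Acacb (32.5), Slc25a20 (28.6), Cpt1a (21.8), Mlycd (20.4), Slc22a5 (8.52), Cpt1b (4.75 over all its exon bases, see the limit above), Acaca (2.12) and Cpt1c (0.594). Library values overlapped between Acacb and Slc25a20 and between Cpt1a and Mlycd, and not between the other neighbours. In DE, Mlycd (8.65) and Cpt1a (7.75) exchanged places, again with overlap, and Cpt1b (2.40) and Acaca (2.09) came to overlap. The other places were the same in both groups.
The genes most like Cpt1a over the 8 libraries, by the root mean square difference of log2 CPM after centring each gene, were Tfrc (0.157), Hsdl2 (0.160), Vwa8 (0.214), Pdk4 (0.220) and Adra1b (0.236), out of 9133 genes with at least 10 CPM. Pdk4 encodes a kinase that inhibits pyruvate dehydrogenase, and Tfrc the transferrin receptor. For Cpt1b they were Lrrc39 (0.0803), Acacb (0.0876), Vwa8 (0.104), Npc1 (0.123) and Etfdh (0.132). Thus Acacb stood beside Cpt1b, while Acaca was 0.526 away from it. Among members, Crat and Slc22a5 (0.0966) and Slc25a20 and Mlycd (0.119) were also close. These distances include the difference between groups.

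DE libraries numbered 12 and 11 were compared in a model of 3 groups, 2 libraries against 2. Among all tested genes 2.06% were called, and 0 of the 10 members were called by edgeR's quasi-likelihood test, with 2 at an unadjusted p under 0.05. Acaca differed by -0.66 (SE 0.16, unadjusted p = 0.00114, adjusted p = 0.0522) and Cpt2 by 0.32 (unadjusted p = 0.0312, adjusted p = 0.174). All FA libraries carry the number 11, so the values against FA were also taken with each number alone. Against FA, Cpt1a was at -1.38 in DE libraries numbered 11 and -1.61 in those numbered 12, and Acacb at -0.99 and -1.08. Slc25a20 was at -1.19 and -1.05, Mlycd at -1.34 and -1.14, Cpt1b at -0.90 and -1.06, and Cpt2 at -1.05 and -0.74. All 8 members called in the full comparison were past both thresholds with either number in this model, Crat at -0.63 and -0.36 and Slc22a5 at -0.49 and -0.44. Acaca was at 0.28 and -0.39 against FA, opposite in sign and not called in either. Cpt1c was at 0.36 with number 11 (adjusted p = 0.426) and at 0.74 with number 12 (adjusted p = 0.0236), where it was past both thresholds. With the other DE libraries left out of the fit altogether, Slc22a5 lost its call with number 11 (adjusted p = 0.0604), Crat with number 12 (adjusted p = 0.0513), and Cpt1c was again called with number 12 (log2 fold change 0.73, adjusted p = 0.0259).
The order of libraries within a group was set beside their length trend. Acaca (17074 exon bases) was highest in FA in replicates 2 and 4, and in DE in replicates 1 and 7, the libraries with the more positive trend in each group. Acacb (9632 bases) and Cpt1a (7642 bases) were also highest in FA in replicates 2 and 4, where Cpt2 (2391 bases) and Slc25a20 (4844 bases) were lowest. Crat, Slc22a5 and Cpt1c were lowest in those replicates as well. The order did not track length in every member. Cpt1b (3372 bases) was highest in FA replicates 2 and 4, at 16.5 and 16.3 CPM against 15.7 and 15.6 CPM. Mlycd (2968 bases) had its lowest FA value, 55.4 CPM, in replicate 6. In DE, Cpt1a was likewise higher, and Cpt2 and Slc25a20 lower, in replicates 1 and 7 than in replicates 3 and 5. Acacb did not follow that order in DE, with 173 CPM in replicate 1 but 142 CPM in replicate 7, below the 154 CPM of replicate 5. After offsets for transcript length and GC content in every library, the 8 called members stayed called, Acaca moved to 0.17 (adjusted p = 0.249), Cpt1a to -1.45, Cpt2 to -1.01, Mlycd to -1.42 and Acacb to -1.01.

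The neighbouring genes of the pathway were read in the same fit, where 5.80% of all tested genes were called. A few called genes in a short list therefore describe those genes and not the list. Of 20 acyl-CoA synthetases and enzymes of matrix β-oxidation, 19 were tested and 9 were called, all lower, with a median log2 fold change of -0.33. Acsl1, the main cardiac enzyme that activates long-chain fatty acids upstream of CPT1, fell from 907.6 ± 30.8 to 457 ± 53.1 CPM (SD, n = 4 each, adjusted p = 0.000552). Decr1, which handles double bonds of unsaturated chains, changed by -0.90 and Etfdh, which passes electrons from the dehydrogenases to ubiquinone, by -0.90 on the log2 scale. Acadvl, the very-long-chain dehydrogenase, changed by -0.71, and Acadm, the medium-chain enzyme, was at -0.29 (adjusted p = 0.0836) and was not called.
Of 16 genes for malonyl-CoA supply and carboxylase control, all tested, 2 were called. Hlcs, which attaches biotin to the carboxylases, fell from 10.6 ± 1.11 to 7.37 ± 0.52 CPM (log2 fold change -0.53, adjusted p = 0.0308). Slc25a1, the citrate carrier that exports acetyl units, rose from 4.82 ± 0.18 to 7.47 ± 1.26 CPM (0.63, adjusted p = 0.0324). Neither call held without FA replicate 2, 3 or 4 or DE replicate 3 or 5, where the count was 0, and 1 was left without FA replicate 6 or DE replicate 7. Prkaa2, the main cardiac catalytic subunit of AMPK, the kinase that inhibits the carboxylases, had 379.3 ± 70.5 CPM (SD, n = 4) with FA and 266.7 ± 59.8 CPM with DE (log2 difference -0.51, 95% interval -0.89 to -0.13, adjusted p = 0.101). In the model of 3 groups it was at -0.28 against FA with number 11 (adjusted p = 0.426) and at -0.78 with number 12 (adjusted p = 0.0094). Fasn and Acly, for fatty acid synthesis, were at -0.20 (95% interval -0.49 to 0.09) and -0.07 (-0.28 to 0.13) and were not called.
Of 9 genes for carnitine supply and other carnitine acyltransferases, 7 were tested and 3 were called. Aldh9a1, an aldehyde dehydrogenase of carnitine synthesis, fell from 45.0 ± 4.61 to 26.1 ± 2.30 CPM (log2 fold change -0.79, adjusted p = 0.00300). Slc16a9, a carnitine efflux transporter, and Slc25a29, a mitochondrial carrier of basic amino acids, rose by 1.29 and 0.98 (adjusted p = 0.0403 and 0.0495), from 0.479 ± 0.125 and 0.665 ± 0.155 CPM in FA, where few fragments were counted. Only 1 of the list was called without FA replicate 2, 3, 4 or 6 or DE replicate 3. Crot, the peroxisomal octanoyltransferase, was at -0.29 (adjusted p = 0.0765). Tmlhe, the first enzyme of carnitine synthesis, had 0 counts in every library. That allows up to 0.169 CPM in the shallowest one if its fragments could be counted. No exon length was matched to Tmlhe, and whether they could be counted is not known. Bbox1, the last enzyme, had 15 counts in all.
Of 9 PPAR, RXR and PGC-1 regulators, all tested, Ppargc1b, a coactivator of mitochondrial genes, was called, with 31.0 ± 7.10 CPM after FA and 18.3 ± 1.76 CPM after DE (log2 fold change -0.76, adjusted p = 0.0224). That count was 0 without FA replicate 2, FA replicate 4 or DE replicate 3, and 2 without DE replicate 1. Ppara was at -0.25 (95% interval -0.58 to 0.07) and Ppargc1a at -0.26 (-0.60 to 0.08). Pparg was at 0.62 (adjusted p = 0.0565). None of these 3 was called in the full comparison. In the model of 3 groups, Ppargc1a was at -0.02 against FA with number 11 (adjusted p = 0.962). With number 12 it was at -0.55 (adjusted p = 0.014).

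**Figure D4:**
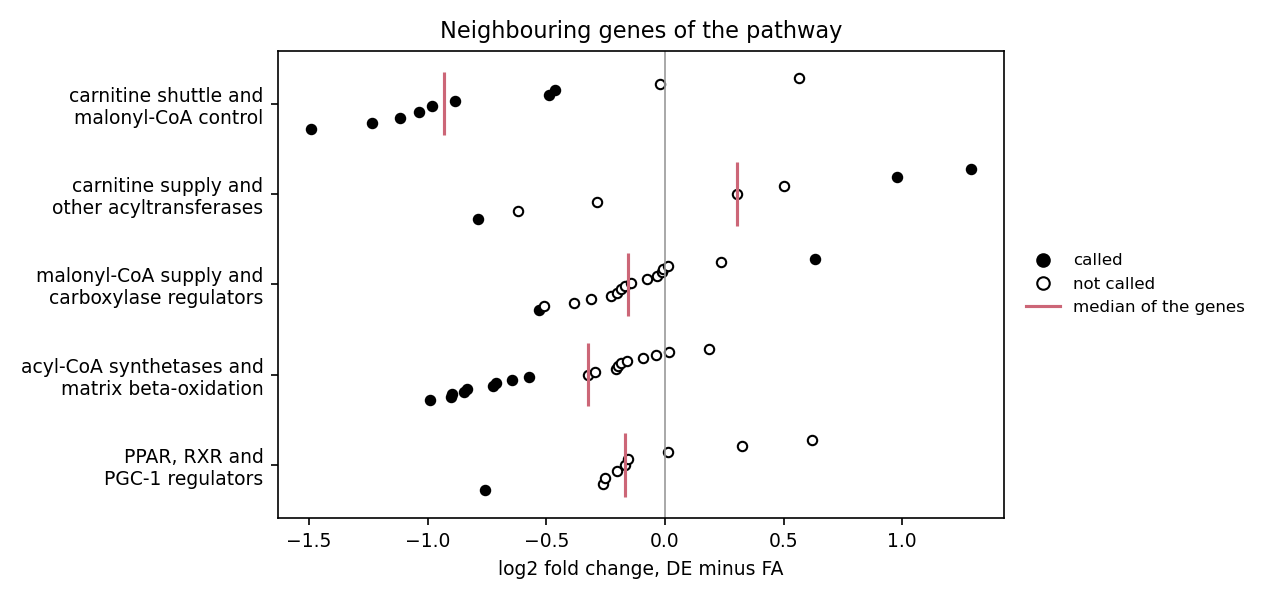
Log2 fold change of DE over FA for the members and for the tested genes of 4 neighbouring lists, with called genes filled and the median of each list as a line. The members, chosen with earlier results of these data known, have the lowest median (-0.93), and the medians of the other lists run from -0.33 to 0.30.

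Markers of other cells in which these isoforms are abundant were looked up. Of 8 hepatocyte markers, 4 were tested and the others, Alb among them, had 36 counts or fewer over all libraries, with Serpina1a at 0. Their summed level was 4.60 to 6.64 CPM in FA and 5.22 to 13.1 CPM in DE. Of 8 skeletal muscle markers, Pax7 had 1 count over all libraries and Myog 22, and the summed level of 48.9 to 83.2 CPM in FA and 39.97 to 59.4 CPM in DE was mostly Acta1, which cardiomyocytes also express. Brown adipocyte markers summed to 312.5 to 460.2 CPM in FA and 288.9 to 562.7 CPM in DE, most of it Fabp4, which endothelial cells also express. Plin1 had 3 counts, Zic1 12 and Adipoq 13 over all libraries, and Cidea, which changed by -0.92 on the log2 scale, was the 1 called gene of that list. Markers of endothelial cells (967.9 to 1283 CPM in FA, 1048 to 1559 CPM in DE), leukocytes (14.2 to 20.7 and 17.4 to 29.0 CPM) and atrial cells (582 to 1351 and 572.7 to 911 CPM) overlapped between groups. The erythroid markers (759.2 to 1880 and 1209 to 2022 CPM) overlapped too, and those of smooth muscle and pericytes had sums that were apart, at 1588 to 2148 CPM in FA and 1150 to 1549 CPM in DE. Most of that sum was Acta2 (log2 difference -0.63) and Abcc9 (-0.43), which cardiomyocytes can also express, while 5 of the 8 had positive differences and the median of the list was 0.11. The part of these markers in the results was not tested.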

How the data were processed

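RNA-seq counts of 8 libraries were used, 4 FA and 4 DE, grouped by their labels. The authors selected poly-A RNA, made stranded libraries, aligned reads to mm10 with Tophat, kept marked duplicates, and used featureCounts. What they deposited is a table of raw counts by Entrez identifier that had not been normalized. The strand setting, and the treatment of fragments on several genes, are not stated in the text. The methods give fewer libraries per group than the labels, which give 4, and all 4 were used.

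Counts were filtered with filterByExpr at 10 counts, and TMM factors were computed. The model held exposure alone and was fitted by quasi-likelihood (glmQLFit, then glmQLFTest) with edgeR 4.0.16 under R 4.3.3. Genes were called at an adjusted p of 0.05 and a fold difference of 1.25. Standard errors come from the F statistic, and CPM uses the same factors. Ratios use log2 of the count plus 0.5. Symbols and positions come from RefSeq on GRCm38.p6 (25275 of 27179 genes matched), and exon lengths from GENCODE M21. Members, lists and pairs were chosen with earlier results of these data known. Named genes are all members, genes of the 4 lists, and the 5 most like Cpt1a and Cpt1b. The rule allowed single markers as needed, and those named (such as Myh6, Acta1, Fabp4 and Acta2) were picked after their values were seen, as was the read-through gene Gm44502, which is outside the rule. Replicates differed by more than sampling noise (chi-square per gene of 5.42 or more). Intervals cover the spread between libraries. The code was tested on simulated data. Alternatives tried were edgeR's likelihood ratio test, DESeq2 1.42.0, limma-voom (limma 3.58.1), RLE and upper quartile factors, library totals, leaving low counts unfiltered, keeping genes whose mean reached 1 CPM, the 25% difference built into the test, the name number as a term, libraries numbered 11 only, offsets for length and GC content (known for 92.55% of tested genes), and each library left out. The DE libraries numbered 12 alone and the comparison of the numbers were chosen after seeing the data.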

Additional observations from a re-analysis of the deposited data

How the results depend on the processing

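Between 6 and 8 of the 10 members were called under each of the 21 alternatives. Cpt1a, Cpt1b, Cpt2, Slc25a20, Mlycd and Acacb were called in all 21, Slc22a5 in 18 and Crat in 14. With the 25% difference built into the test, Crat and Slc22a5 were not called (adjusted p = 0.348 and 0.341). Over the alternatives the log2 fold change of Cpt1a lay between -1.62 and -1.38 and that of Cpt1c, called in 1, between 0.35 and 0.73. Acaca changed sign with upper quartile factors (0.0021), library totals alone (0.0497), the name number as a term (0.28), libraries numbered 11 only (0.27), the length and GC offsets (0.17), and when single libraries were left out, where it ran from -0.16 to 0.0897. It was positive without FA replicate 2 (0.0391), FA replicate 4 (0.0160), DE replicate 3 (0.0897) or DE replicate 5 (0.0809), and the cause was not tested. All 5 ratios kept their direction in each of their 11 alternatives and moved by less than the larger of the SDs of the 2 groups, though in some by more than the smaller. The log2 differences ran from -0.56 to -0.45 for Cpt1a to Cpt1b, -1.28 to -0.70 for Acacb to Acaca, -0.34 to -0.06 for Mlycd to Acacb, -0.87 to -0.33 for Cpt1a to Cpt2 and 0.37 to 0.42 for Crat to Cpt2.

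Over all genes, 868 were called. The count was 1633 with DESeq2, 1603 with the likelihood ratio test, 114 with the built-in difference, 448 with the name number as a term, 260 with number 11 only, 1465 with the offsets, 3240 with the DE libraries numbered 12 only, and 237 to 1168 with single libraries left out. The share of called genes that were lower was 38.2%. It was 21.3% with library totals alone and 49.6% with the offsets, and the majority turned to lower with the built-in difference (61.4%), with number 12 only (58.2%) and without FA replicate 3 (50.3%). The 3 called genes of carnitine supply became 1 with limma-voom, a mean of at least 1 CPM, the built-in difference, the name number as a term or number 11 only, 6 with number 12 only, and 1 to 3 with single libraries left out. The 2 of malonyl-CoA supply became 0 with the built-in difference or number 11 only, 1 with the name number as a term, 4 with number 12 only, and 0 to 2 with single libraries left out. The 1 PPAR, RXR or PGC-1 gene became 2 with DESeq2, the likelihood ratio test, library totals alone or the offsets, 0 with the built-in difference, the name number as a term or number 11 only, 3 with number 12 only, and 0 to 2 with single libraries left out. The cause of these shifts was not tested. The β-oxidation list had 7 to 12 called genes throughout. No paired analysis was possible because nothing in the labels links an FA library to a DE library. Depth limits Cpt1c, at 48 to 228 counts per library, most among the members.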
